A study of Rattus norvegicus with 6 samples.

Results

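The genes described here encode the proteins of the cytosolic ribosome, measured in spinal cord of SOD1 G93A rats and of wild-type (WT) littermates. They were chosen by name alone, as every gene whose symbol has the form of a large-subunit (Rpl), small-subunit (Rps) or stalk (Rplp) protein. The rule found 60 genes with 61 probes, of 12978 genes that the array's annotation names by 1 symbol. For 56 of the 60 genes, a probe had a detection p-value below 0.01 on at least 1 array, as did a probe of 8752 genes in all, and these are the genes compared. The 56 genes comprise 31 of the large subunit, 22 of the small subunit and the 3 stalk genes.

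The rats were female Sprague-Dawley animals, either mutant for G93A SOD1, a dominant change of superoxide dismutase 1 that causes amyotrophic lateral sclerosis in people, or their wild-type littermates. Spinal cord was taken before symptoms, at disease onset and at end stage, and from age-matched WT rats at each of these 3 times. RNA of 5 rats was pooled for each genotype and stage, so there were 6 pools on 6 Illumina rat BeadChip arrays, 3 G93A and 3 WT, with 1 pool per genotype and stage. The labels give an age of 10 weeks for all 6 samples, whereas the design text gives that age for the presymptomatic stage. They name the tissue as lumbar cord in one place and as thoracic cord in another, so the segment is uncertain. No promoter, line or copy number of the mutant gene is given. Since each pool is a single sample, p-values here measure only the spread between pools, and the spread between rats of a pool was not measured.

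Every cell builds ribosomes from a small and a large subunit, each made of ribosomal RNA and of a fixed set of proteins. The small subunit decodes the mRNA, the large subunit joins amino acids, and the P-stalk of the large subunit recruits the elongation factors. In vertebrates the mRNAs of nearly all these proteins begin with an unbroken run of pyrimidines, the terminal oligopyrimidine tract, through which mTORC1 and the RNA-binding protein LARP1 control their translation. The levels below are of mRNA and say nothing of that translation.

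Start sites of some genes named in the results are shown here, most but not all of them with such a run. Each line below gives 30 bases, from 10 before the annotated start site, 5′ to 3′ on the gene's own strand. The source is the RefSeq promoter table of the rat build GRCr8. Capitals mark a run of at least 8 C or T that touches the span from 5 bases before to 5 after the start. In Rpl13a and Rps13 the run does not include the start itself. Rpl13, Rps13, Rps15 and Rpl27a are shown because their G93A pools lay above all WT pools, Rps2 and Rpl13a because they were low in a single pool, and Rps26 and Rps3a for their end-stage levels and for the absence of such a run in Rps3a.
Rpl13, chr19:68062504-68062533, plus strand: cggtgcccgaTCCTTTCCgctcggccgttc
Rps13, chr1:180009641-180009670, minus strand: ttcctacctcgTTCTCTCTTTgcttccaga
Rps15, chr7:10068096-10068125, minus strand: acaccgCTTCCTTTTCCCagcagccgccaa
Rpl27a, chr1:172974563-172974592, plus strand: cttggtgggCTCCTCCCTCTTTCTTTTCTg
Rps2, chr10:14251838-14251867, plus strand: TCTTTTTCTTCgggaaaacacgtgagtctg
Rpl13a, chr1:104748894-104748923, minus strand: TCCTTTCCTaggcggctgccgaagatggcg
Rps26, chr7:1643385-1643414, minus strand: ccgccgggTCCTCTTTCgagtcttggctcc
Rps3a, chr2:173827023-173827052, minus strand: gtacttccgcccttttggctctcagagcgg

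Of the 60 genes, 52 had an entry in the promoter table, and 32 of these (61.5%) held a run of at least 8 C or T that touched the span from 5 bases before to 5 after the start. The same held for 8.67% of all 33469 promoters in the table and for 7.90% of the 11133 promoters of genes on the array. In Rps2 and Rpl13a the run begins before the bases shown. The letters CCGGAAG, the core of sites for ETS-family factors, occurred on either strand in 16 of the 52 promoters from 250 before to 50 after the start (30.8%), against 8.75% of all promoters and 12.5% of those of genes on the array. AAGATGGC, the core of sites for YY1, occurred on either strand in 5 of the 52 (9.62%), against 3.17% of all and 4.18% of those on the array. These 2 motifs were chosen after values had been seen, and since both hold the letters AAG their matches can overlap. A match is a description of the sequence, not a binding site. The run was found in 8 of 16 promoters (50%) of members whose G93A pools all lay above the WT pools, and in 24 of 36 (66.7%) of the other members.

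The deposited probe identifiers are not in register with the rows of values, and they were sorted as text before use. In sorted order 53 of the 61 ribosomal protein probes (86.9%) were detected on all 6 arrays, against 25 (41.0%) in the order as deposited. For 217 probes of olfactory, taste and vomeronasal receptors the shares were 2.76% and 36.9%. Because ribosomal protein genes helped to settle this order, their high detection is no finding. The probes of Rpl11, Rpl12, Rpl34 and Rpl36a were detected on no array, those of Rps2 and Rpl5 missed detection only in the presymptomatic G93A pool, and 1 of the 2 Rps19 probes was detected in the presymptomatic WT pool alone. Ribosomal protein genes have many near-identical pseudogene copies, and signal from such a copy cannot be told apart from that of the gene.

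The presymptomatic G93A pool stood apart from the other arrays. It had 9116 of 22226 probes detected, while the other 5 pools had between 10122 and 10942. The summed level of 14 microglia and macrophage markers was 10077, 35191 and 37314 in the G93A pools in stage order and 9668, 11499 and 11562 in the WT pools. The summed level of 13 neuron markers was 25962 to 37972 in G93A pools and 42406 to 47011 in WT pools, and 9 oligodendrocyte markers summed to 20222 to 28669 in G93A pools and 26365 to 33156 in WT pools. Astrocyte markers (8 genes) summed to 28154 to 35750 in G93A and 33833 to 39793 in WT pools, and meningeal and fibroblast markers (8 genes) to 20082 to 38876 in G93A and 15651 to 29084 in WT pools. Of the 6 T cell markers, Cd3e and Cd4 were detected on no array, and only 2 markers were detected on all 6 arrays. The T cell sums were 468, 487 and 572 in G93A pools and 431 to 440 in WT pools. These did not overlap but rest on few detected probes. Skeletal muscle markers (9 genes) summed to 1640 to 4362 in G93A pools and 3129 to 7623 in WT pools, with 1640 in the G93A pool and 7623 in the WT pool at end stage. The rat Sod1 probe read 13.01, 12.89 and 12.79 log2 units in G93A pools and 12.79, 12.89 and 13.06 in WT pools, which need not detect a transgene of another species and so does not check the genotype. In pooled tissue a change in the mix of cells and a change in the RNA of each cell cannot be told apart, and the part of these shifts in the results below was not tested.

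Ribosomal protein probes took up a larger share of the signal in G93A cord than in WT cord. They held 4.56%, 4.75% and 5.10% of the deposited intensity of the G93A arrays at the presymptomatic stage, onset and end stage. In the WT arrays they held 3.73%, 4.15% and 4.41%. The lowest G93A share thus lay above the highest WT share, and the share was larger at each later stage in both genotypes. In the authors' deposited normalized values the shares were 4.33%, 4.80% and 4.97% in G93A pools and 3.75%, 4.16% and 4.39% in WT pools, so there the presymptomatic G93A pool lay below the end-stage WT pool. After quantile normalization they were 3.66%, 4.12% and 4.25% in G93A pools and 3.23%, 3.68% and 3.63% in WT pools, with the presymptomatic G93A pool just below the WT onset pool. An exact two-sided permutation test of 3 pools against 3 cannot give a p below 0.1.

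**Figure D1:**
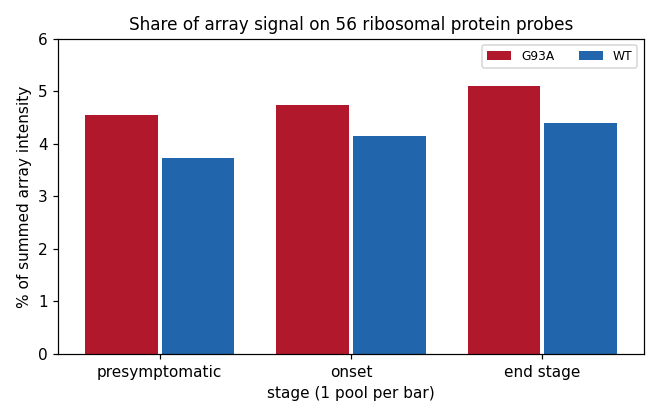
Percent of each array's summed deposited intensity held by the 56 ribosomal protein probes (vertical axis), with 1 bar per pool, G93A beside WT at each stage. The G93A pools span 4.56% to 5.10% and the WT pools 3.73% to 4.41%.

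The median shift over the genes was small and in the same direction at each stage, though single genes varied. Values from here on are log2 levels after background correction and quantile normalization, and differences are the G93A pool minus the WT pool of the same stage. The median difference of the 56 genes was 0.13 before symptoms, 0.15 at onset and 0.18 at end stage, while that of all 8752 genes was 0.02, -0.01 and -0.01. Of the 56 genes, 38, 45 and 47 were higher in the G93A pool at the successive stages. The G93A pool was the higher one at all 3 stages for 31 of the 56 (55.4%), against 17.1% of all genes, and the lower one at all 3 for 3 (5.36%), against 16.2%. The size of the shift depended on the scaling: with each array shifted to a common 75th percentile the end-stage median was 0.00 while that of all genes was 0.16, and in the authors' deposited normalized values it exceeded that of all genes by -0.00, 0.23 and 0.03 at the successive stages.

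**Figure D2:**
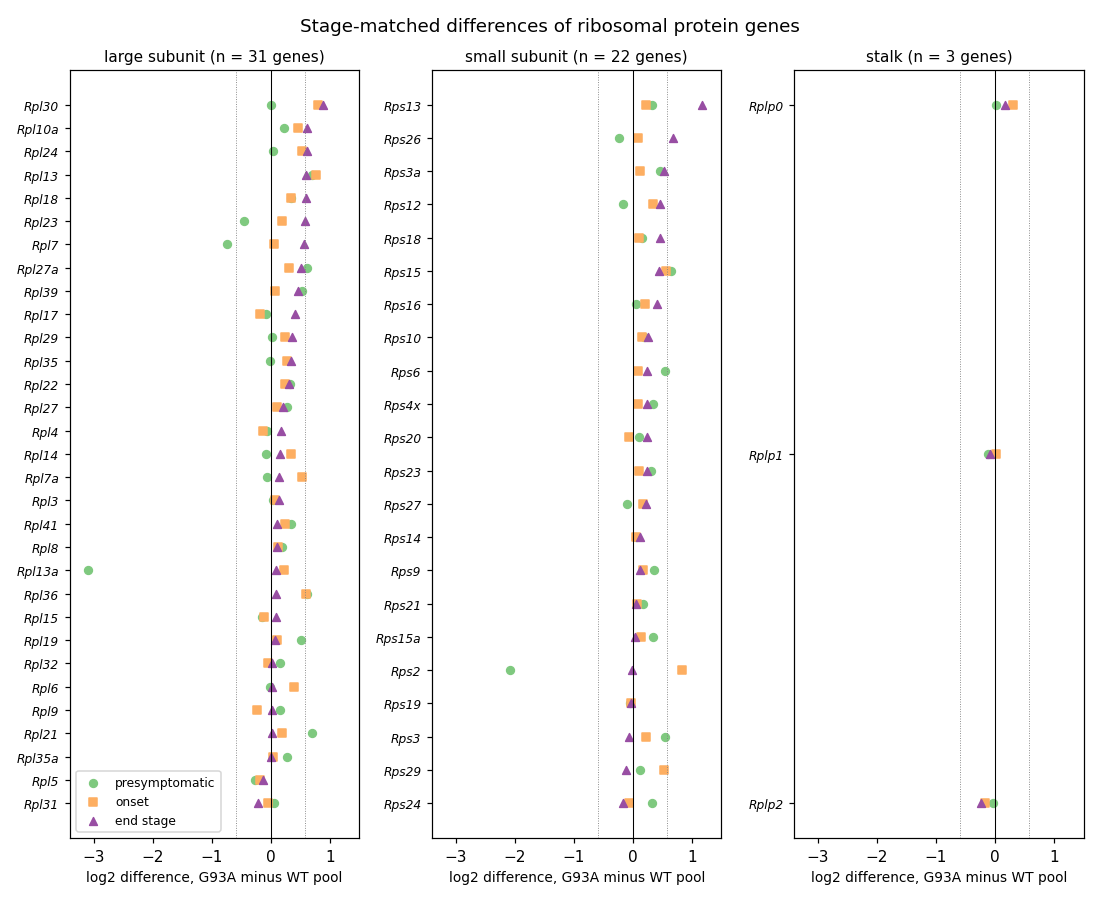
Log2 difference of G93A minus WT pool for each of the 56 ribosomal protein genes at each of the 3 stages, with dotted lines at 1.5-fold either way. Most points lie above 0, and Rpl13a (-3.10) and Rps2 (-2.08) stand far below the rest before symptoms.

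The WT pools differed among themselves by about as much. Relative to the presymptomatic WT pool, the median ribosomal protein gene was 0.17 higher in the WT onset pool, with 44 of 56 genes higher, and 0.12 higher in the WT end-stage pool, with 43 higher. The WT end-stage pool differed from the WT onset pool by a median of -0.02. Within the G93A genotype the onset pool was a median of 0.10 above the presymptomatic pool and the end-stage pool 0.23 above it. The genotype differences of 0.13 to 0.18 are thus within about the range that separates WT pools from each other.

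Other bright genes did not show the same shift. The 44 ribosomal protein genes with a mean level of at least 11 log2 units had median differences of 0.18, 0.17 and 0.22, while the other 558 genes that bright had 0.00, -0.11 and -0.17. For the 12 dimmer ribosomal protein genes the medians were -0.10, 0.02 and 0.04. The mean was taken over all 6 pools, so this split used the values compared. Rpl13 and Rpl24, with WT means of 10.86 and 10.93, counted as bright through their G93A pools. Rpl13a, with a WT mean of 11.31, counted as dimmer through its G93A mean of 10.38. By role, the medians were 0.06, 0.19 and 0.16 for the large subunit, 0.18, 0.13 and 0.24 for the small subunit, and -0.03, 0.02 and -0.08 for the 3 stalk genes. The differences between these groups were not tested.

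**Figure D3:**
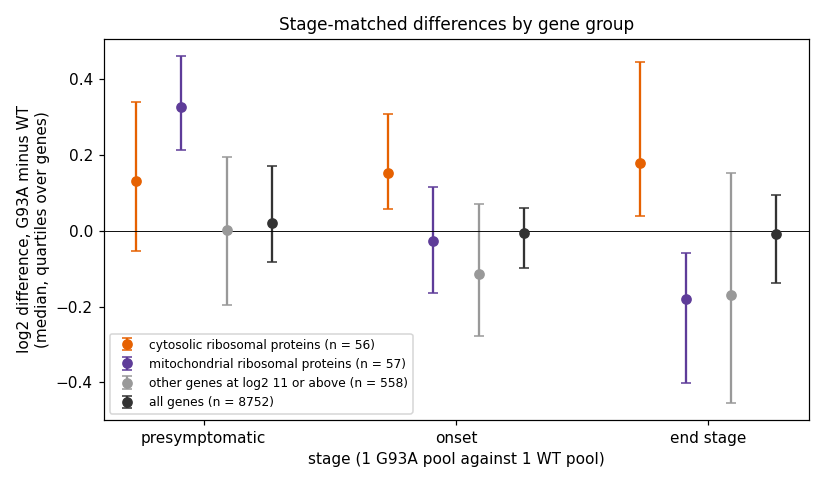
Median log2 difference of G93A minus WT pool at each stage (points, with bars from the lower to the upper quartile over genes) for the cytosolic and mitochondrial ribosomal protein genes, the other bright genes and all genes. The cytosolic ribosomal protein medians lie between 0.13 and 0.18 at all 3 stages, and the mitochondrial ones are 0.33, -0.03 and -0.18 in stage order.

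In 17 of the 56 genes all 3 G93A pools lay above all 3 WT pools. That is 30.4% of the genes, against 8.11% of all genes, and 3 genes (5.36%) lay wholly below, against 6.73%. Of the 17, 8 belong to the large subunit and 9 to the small subunit, and none of the 3 stalk genes is among them. Of the 558 other bright genes, 4.84% lay wholly above and 11.6% wholly below. The count rests on how the arrays were scaled. In the deposited intensities, not normalized further here, it was 14 (25%, against 4.62% of all genes), and 10 of these were among the 17. In the authors' deposited normalized values it was 6 (10.7%, against 8.57%), of which 4 were among the 17. When each array was instead shifted to a common 75th percentile it was 5 (8.93%, against 14.5%), of which 2 were among the 17, so in these 2 scalings the share is near or below that of all genes. With the presymptomatic pools of both genotypes left out, 31 genes (55.4%) had both G93A pools above both WT pools, against 20.5% of all genes. Without the onset pools the count was 28 (50%, against 21.6%), and without the end-stage pools 21 (37.5%, against 16.1%).

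**Figure D4:**
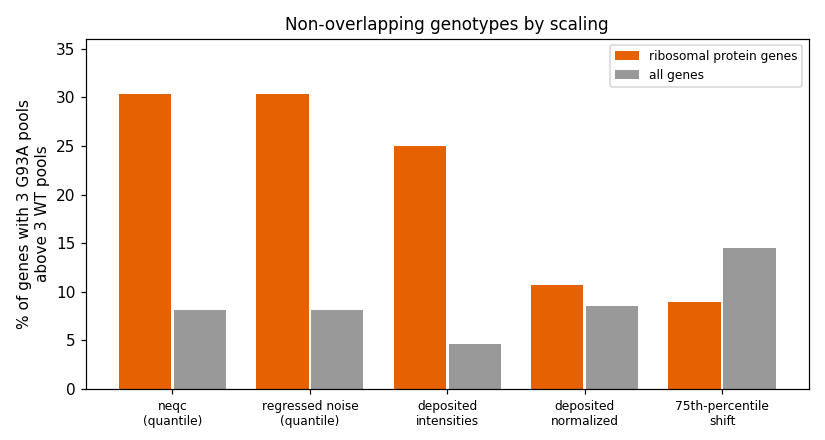
Percent of ribosomal protein genes, and of all genes, whose 3 G93A pools all lie above the 3 WT pools, under 5 ways of processing the arrays (bars, vertical axis from 0). The ribosomal protein share is 30.4% in the setting used for the levels here and 8.93% after the 75th-percentile shift, where all genes are at 14.5%.

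Among large-subunit genes, Rpl13 had the widest separation. Its levels were 11.37, 11.81 and 11.47 in the G93A pools in stage order and 10.67, 11.04 and 10.87 in the WT pools. All G93A pools stood above all WT pools, with a gap of 0.33 between the nearest 2, and Rpl13 was the only member at least 1.5-fold higher at all 3 stages, at 1.62-fold, 1.70-fold and 1.52-fold. Rpl27a, another large-subunit protein, had 13.08, 13.23 and 13.39 in G93A pools and 12.47, 12.92 and 12.87 in WT pools, again without overlap. Rpl36 had 11.59, 11.70 and 11.30 in G93A pools against 10.97, 11.10 and 11.21 in WT pools, a gap that was widest before symptoms and at onset.

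Rpl30, whose protein lies at the interface between the subunits, was level before symptoms. It had 11.38, 11.25 and 12.10 in G93A pools and 11.38, 10.44 and 11.22 in WT pools, so the genotypes overlapped, with a 1.75-fold higher level at onset and 1.84-fold at end stage. Rpl10a, a protein of the L1 stalk at the tRNA exit, had 11.78, 12.29 and 12.30 in G93A pools and 11.56, 11.82 and 11.68 in WT pools, with the presymptomatic G93A pool inside the WT range. Rpl24 had 11.20, 11.47 and 11.29 in G93A pools against 11.16, 10.95 and 10.68 in WT pools, without overlap and with a difference that was larger at each later stage. Rpl21 ran the other way, at 12.72, 12.54 and 12.49 in G93A pools and 12.01, 12.35 and 12.47 in WT pools, so that the difference of 0.71 before symptoms was the widest upward one of any member at that stage.

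Rpl41 encodes one of the smallest proteins known in eukaryotes, a short basic peptide of the large subunit. Its levels were 14.00, 14.04 and 13.91 in G93A pools and 13.66, 13.80 and 13.80 in WT pools, with no overlap. Rpl39, which lines the exit tunnel for the new protein, had 12.62, 12.47 and 12.66 in G93A pools and 12.09, 12.41 and 12.20 in WT pools, also without overlap. Rpl9 was close to level, with 13.74, 13.70 and 13.70 in G93A pools and 13.59, 13.93 and 13.69 in WT pools.

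Among small-subunit genes, Rps13 had the largest upward difference at any stage. It had 10.75, 10.62 and 11.08 in G93A pools and 10.43, 10.40 and 9.90 in WT pools. The G93A pools lay above the WT pools throughout, and the 2.26-fold difference at end stage combined the highest G93A pool with the lowest WT pool. Rps15, a protein of the subunit's head near the decoding site, had 12.12, 12.35 and 12.45 in G93A pools and 11.46, 11.78 and 12.01 in WT pools. Here too the genotypes did not overlap, and both were lowest before symptoms.

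Rps3a, a protein of the small subunit's body, had 12.89, 12.78 and 13.18 in G93A pools and 12.43, 12.66 and 12.65 in WT pools, without overlap. Rps6, the substrate of the S6 kinases downstream of mTORC1, had 13.03, 12.97 and 13.15 in G93A pools and 12.47, 12.88 and 12.90 in WT pools, with a gap of 0.07 between the nearest pools. Rps4x, the X-linked form of another small-subunit protein, had 13.31, 13.25 and 13.45 in G93A pools and 12.98, 13.15 and 13.21 in WT pools. All 3 genes were furthest apart before symptoms or at end stage and closest at onset. Rps23, a protein of the decoding centre, also lay wholly above, by a mean of 0.22.

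Rps26, which lies at the mRNA exit channel, had 12.06, 12.86 and 13.03 in G93A pools and 12.29, 12.77 and 12.36 in WT pools. It was thus lower in the G93A pool before symptoms and higher by 0.68 at end stage, with overlapping genotypes. Rps29, a small zinc-finger protein of the head, stood out at onset alone, with 11.38, 11.87 and 11.10 in G93A pools and 11.27, 11.34 and 11.23 in WT pools. Rps24 was near the background, at 7.62, 7.34 and 7.17 in G93A pools against 7.29, 7.41 and 7.34 in WT pools, as was Rpl31, at 7.27, 7.15 and 7.51 in G93A pools and 7.21, 7.19 and 7.72 in WT pools.

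**Figure D5:**
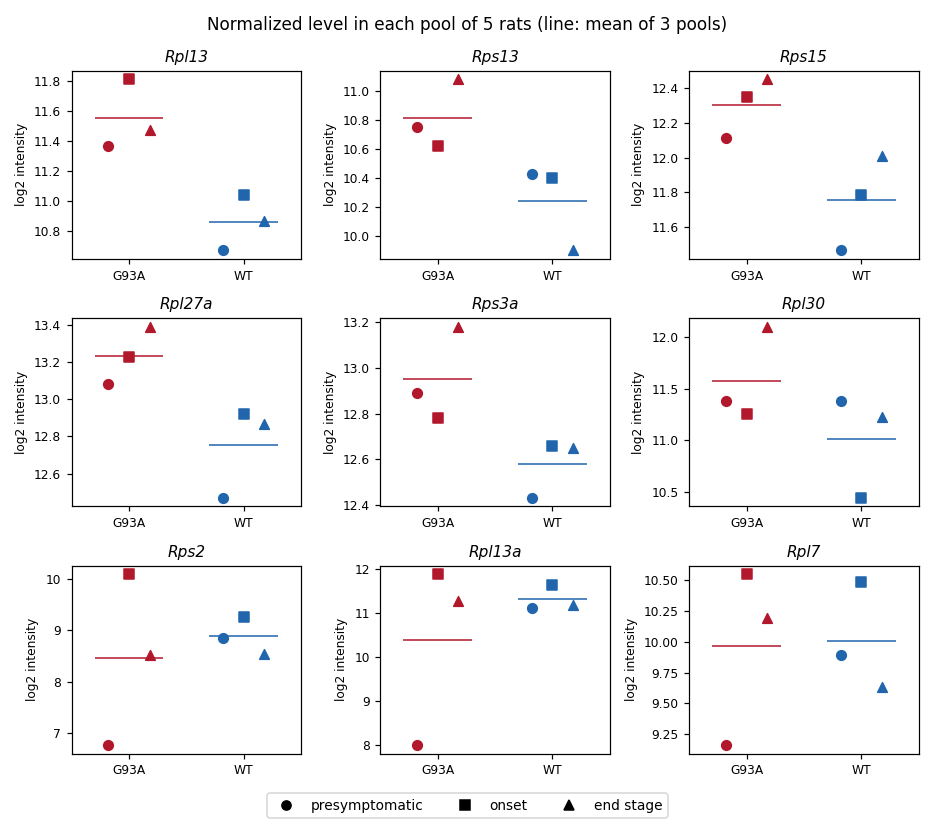
Log2 level (vertical axes) in each of the 6 pools for 9 ribosomal protein genes, G93A left of WT, with a symbol per stage and a line at the mean of 3 pools. Rpl13, Rps13 and Rps15 have all G93A pools above all WT pools, and Rpl13a and Rps2 (6.76) are low in the presymptomatic G93A pool alone.

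Of the 3 stalk genes, Rplp0 was higher in the G93A pool at each stage, by 0.02, 0.31 and 0.18, and Rplp2 was lower at each, though by 0.03 higher before symptoms with the 75th-percentile shift. Rplp0, which anchors the stalk to the ribosome, had 13.76, 14.22 and 14.11 in G93A pools and 13.74, 13.91 and 13.93 in WT pools, with the presymptomatic G93A pool inside the WT range. Rplp1 had 12.40, 12.58 and 12.83 in G93A pools and 12.53, 12.56 and 12.91 in WT pools, which overlapped. Rplp2 had 6.83 to 6.96 in G93A pools and 6.99 to 7.06 in WT pools, all G93A pools lying below all WT pools but close to the background of the array, whose lowest level was 6.62.

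Rpl5, which binds 5S rRNA and, when free of the ribosome, the p53 regulator Mdm2, was likewise dim and lower in G93A. Its levels were 6.76, 6.82 and 6.87 in G93A pools and 7.03, 6.99 and 6.99 in WT pools, without overlap. As its probe was not detected in the presymptomatic G93A pool, that difference is a bound of at least 1.20-fold lower. The size of the Rpl5 differences rested on the processing: they were -0.27, -0.17 and -0.13 in stage order here, -1.62, -1.09 and -0.65 in the authors' deposited normalized values, and -2.03, -1.12 and -0.74 without further background correction, while the 75th-percentile shift turned the end-stage one to 0.03. Rps19, the third gene with all G93A pools below the WT pools, differed by a mean of -0.04 and was detected in 1 pool only.

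Rpl13a and Rps2 were low in the presymptomatic G93A pool and nowhere else. Rpl13a, a large-subunit protein that in human cells also leaves the ribosome to silence inflammatory mRNAs, had a deposited intensity of 260 in that pool. In the other G93A pools it had 3530 at onset and 2518 at end stage, and in WT pools 2300, 3194 and 2409. Its normalized level in the presymptomatic G93A pool was 3.10 log2 units, or 8.55-fold, below that of the WT pool of the stage, while the other 5 pools lay between 11.10 and 11.87.

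Rps2, a protein at the mRNA entry channel of the small subunit, had an intensity of 13.4 in the presymptomatic G93A pool, where it was not detected. It had 1132 at onset and 434 at end stage in the other G93A pools, and 537, 701 and 414 in the WT pools. Its normalized levels were 6.76, 10.09 and 8.52 in G93A pools and 8.84, 9.27 and 8.54 in WT pools, so that it was at least 4.23-fold lower before symptoms, 1.77-fold higher at onset and level at end stage. Rpl7, also of the large subunit, had 9.16, 10.55 and 10.19 in G93A pools and 9.89, 10.49 and 9.63 in WT pools, and was the remaining member past 1.5-fold lower before symptoms.

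The same array held other genes with this pattern. In it 2 of 56 ribosomal protein genes (3.57%) and 29 of all 8752 genes (0.331%) were at least 2-fold below every other pool. In the presymptomatic comparison 39 genes were at least 4-fold lower in the G93A pool, against 0 at onset and 6 at end stage, and none was that much higher before symptoms. Actb, which encodes β-actin, was 4.36-fold lower there, at 10.86 in the G93A pool and 12.98 in the WT pool. Ncl, the nucleolar protein nucleolin, was 4.38-fold lower and Eif5a, a translation factor that relieves stalled ribosomes, 6.20-fold lower. Ncl and Eif5a were also lower in the G93A pool at end stage, by 1.84-fold and 1.45-fold. Ppia and Hprt1, listed with Actb as signs of RNA quality, were not lower in that pool, with presymptomatic differences of 0.06 and 0.32. The part of this pool's array in the Rpl13a and Rps2 values was not tested.

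Few members passed a fold threshold. At least 1.5-fold higher in the G93A pool were 5 genes before symptoms (8.93%, against 4.83% of all genes detected in that pair), 4 at onset (7.27%, against 4.62%) and 7 at end stage (12.7%, against 7.88%). At least 1.5-fold lower were 3 before symptoms (5.36%, against 6.16%) and 0 at onset and end stage, against 2.54% and 7.48% of all genes. The 7 at end stage were Rps13, Rpl30, Rps26, Rpl10a, Rpl24, Rpl13 and Rpl18. Past 2-fold, Rps13 was the only member higher at end stage, against 3.68% of all genes, and Rpl13a and Rps2 were the 2 lower before symptoms, against 2.64%. No member was 2-fold higher before symptoms or at onset, against 0.38% and 1.88% of all genes, or 2-fold lower at onset or end stage, against 0.189% and 1.86%.

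No ribosomal protein gene passed limma's test after Benjamini-Hochberg adjustment over 12711 probes in any of 5 comparisons. With stage as a block, 15 of the 56 had an unadjusted p below 0.05, 14 of them higher in G93A, against 9.29% of all probes, and 0% of all probes was called. The largest positive coefficient was that of Rpl13, at 0.69 ± 0.05 (SE, 3 pools per genotype, limma adjusted p = 0.383), followed by Rps13 at 0.57 ± 0.24 (limma adjusted p = 0.597). Rpl13a had the widest negative one, at -0.93 ± 0.87 (limma adjusted p = 0.845), from its low value in a single pool. Rps15 had 0.55 ± 0.06, and the smallest adjusted p, 0.383, belonged to Rpl22 at 0.29 ± 0.04 and was shared by several genes.

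Each G93A pool was also set against the 3 WT pools, taking a lone pool to vary as the WT pools do. The WT pools were taken as replicates although they differ in stage and age, so their spread includes that between ages. These comparisons are therefore not age-matched. Counts of members in them are out of 56. In these limma fits 8, 12 and 8 members had an unadjusted p below 0.05 before symptoms, at onset and at end stage, against 14.1%, 12.6% and 17.8% of all probes. None passed after adjustment, where 0%, 0% and 1.68% of all probes did, with 1.31% higher and 0.37% lower at end stage. The smallest adjusted p values were 0.168 for Rpl13a before symptoms, 0.132 for Rps29 at onset and 0.0982 for Rpl35 at end stage. Rpl35 had 12.42, 12.75 and 12.87 in G93A pools and 12.44, 12.47 and 12.53 in WT pools, where the later G93A pools lay above all WT pools. Between the end-stage and presymptomatic G93A pools 9 members had an unadjusted p below 0.05, against 17.4% of all probes, and the smallest limma adjusted p was 0.0866 for Rpl13a.

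Calls before symptoms depended on the processing, for all probes as for the members. With the 75th-percentile shift Rpl13a, Rpl7 and Rps2 fell, with noise estimated by regression Rpl13a, Rpl5 and Rps2 fell, with a trended robust variance Rpl13a and Rps2 fell, and without further background correction Rps2 fell, each past the adjusted threshold of 0.05 in limma. These fits called 393, 261, 95 and 121 of all probes, in the same order, and all use the 1 array that stood apart. At end stage the 75th-percentile shift called Rps13 and Rpl30 higher, among 1056 of all probes called.

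Ribosomal proteins whose symbols fall outside the naming rule had medians of 0.11, 0.06 and 0.01 over 6 genes, and none passed limma's test. Rpsa, the laminin receptor protein of the small subunit, was higher in each G93A pool, by 0.11, 0.38 and 0.21. Rack1, the scaffold of the small subunit's head, differed by -0.26, 0.18 and 0.29. Rpl22l1, a paralog of Rpl22, was higher in the G93A pool before symptoms and lower at the later stages, with differences of 0.61, -0.54 and -1.10. Its level at end stage was 8.15 in the G93A pool and 9.25 in the WT pool.

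The genes that build ribosomes were taken as 2 lists. The 41 assembly and nucleolar genes had medians of 0.08, 0.03 and 0.03, and none was called by limma. Of the 41, 2 lay wholly above the WT pools (4.88%, against 8.11% of all genes) and 2 wholly below (4.88%, against 6.73%). Ddx18, a helicase of large-subunit assembly, was higher by 0.61 at end stage, and Ncl differed by -2.13, 0.38 and -0.88. The 12 genes of RNA polymerase I and rRNA transcription had medians of 0.12, 0.08 and 0.10, with 11, 8 and 8 of the 12 higher in the G93A pool. Of the 12, 3 lay wholly above the WT pools (25%, against 8.11% of all genes) and 0 wholly below, against 6.73%. Within them limma called Myc, a transcription factor for ribosome genes among many others, at end stage, where it rose against the WT pools (limma adjusted p = 0.0434), to 0.99 above the WT pool of that stage. In that fit 1.31% of all probes were called higher, and with any 1 of the WT pools left out limma called 0 probes in all, so the Myc call was lost each time. Those fits left 1 residual degree of freedom and lost every call, so the loss does not bear on Myc in particular. Myc had 7.37, 7.47 and 8.12 in G93A pools and 7.05, 7.17 and 7.13 in WT pools.

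Other mRNAs with a terminal oligopyrimidine tract, 13 genes of translation factors and related proteins, had medians of -0.15, 0.08 and 0.05. None lay wholly above or below the WT pools and none was called by limma. Eef1d, a subunit of the elongation factor 1 complex, differed by -0.57, 0.24 and 0.36. Tpt1 differed by 0.11, -0.03 and 0.21. These genes share the tract with the ribosomal protein mRNAs, and the difference between the lists was not tested.

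The 12 genes of mTORC1 signalling to the ribosome had medians of 0.01, -0.00 and -0.02. Eif4ebp1, the inhibitor of cap-dependent initiation that mTORC1 phosphorylates, stood out, with 8.32, 9.03 and 9.20 in G93A pools and 7.37, 7.88 and 7.97 in WT pools. Its G93A pools all lay above the WT pools, by 1.93-fold, 2.21-fold and 2.35-fold at the matched stages, and it did not pass limma's test with stage as a block (1.11, adjusted p = 0.383). Mtor itself was lower in each G93A pool, by -0.03, -0.17 and -0.46. The 8 genes of ribosome stalling and the p53 link had medians of 0.03, -0.00 and 0.07, and none was called.

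Mitochondrial ribosomal proteins, made in the cytosol for a separate ribosome, took another course. Their 57 genes had medians of 0.33 before symptoms, -0.03 at onset and -0.18 at end stage, with 53, 28 and 9 higher in the G93A pool. Of the 57, 2 lay wholly above the WT pools (3.51%, against 8.11% of all genes) and 1 wholly below (1.75%, against 6.73%). At end stage limma called 1, Mrpl18, which rose by 1.27 over the WT pools (limma adjusted p = 0.0387), with 8.18 in the G93A pool and 6.85 in the WT pool of that stage. This call too, 1 of 57 where 1.31% of all probes were called higher, was lost with any 1 of the WT pools left out. As for Myc, those fits left 1 residual degree of freedom, so the loss does not bear on Mrpl18 in particular. The difference between the cytosolic and mitochondrial lists was not tested.

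The order of the members' differences was not the same from stage to stage. Across the 56 genes, which share each stage's pair of arrays, the differences correlated between onset and end stage with Pearson's r of 0.36 and Spearman's rho of 0.37, against 0.66 and 0.45 across all genes. Between the presymptomatic stage and onset r was -0.07 and rho 0.16, and between the presymptomatic stage and end stage 0.11 and 0.06. Genes are not independent replicates, and these values only describe the 6 arrays.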

How the data were processed

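RNA of 5 rats was pooled per genotype and stage, and 750 ng was labelled and hybridised to Illumina rat BeadChips, per the labels' protocols. Per the submitters' processing notes BeadStudio 3.2.6 was used. For each of the 6 arrays the authors deposited probe intensity values with a detection p-value, named as non-normalized, and a table of normalized intensity values. Negative values among the former show background subtraction. How the normalized values were made, and a genome build for the probes, are not given in the sources used here. No column of the tables was left unused for want of a sample. The array means of the deposited intensities were nearly equal, from 330.9 to 332.4. Whether these intensities had been scaled to a common mean before deposit was not tested. Precision is limited by 3 pools per genotype.

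Probe identifiers were sorted as text and set against the rows, and gene symbols were taken from the platform's annotation; 13192 of 22226 probes had 1 symbol. Intensities were corrected by normexp (offset 16), quantile normalized and put on the log2 scale (limma 3.58.1, R 4.3.3). Probes with a detection p-value below 0.01 on at least 1 array were kept (12711), and the brightest kept probe stood for a gene; each ribosomal protein gene had 1 kept probe. Genotype was fitted with stage as a block, and each G93A pool was fitted against the WT pools, by limma with Benjamini-Hochberg adjustment over all kept probes, at 0.05 and 2 residual degrees of freedom, after the fits had been tested on simulated data. For an undetected probe the fold is a bound against the higher of its own level and the lowest level among detected probes of that array.

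The members and gene lists were chosen with earlier results of these data known. Members named in the text are those with the widest differences at a stage, in the genotype fit or in the gap between pools, and from each other list those with the widest end-stage difference. Rpl18, Rpl22, Rpl35, Rplp0, Rps4x, Actb, Ppia, Hprt1 and Eif5a were added after values were seen. Alternatives covered normalization, background, detection filter, identifier order, variance prior, block and left-out pools.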

Additional observations from a re-analysis of the deposited data

Results flagged for a closer look

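Rps2 differed in opposite directions at different stages. Its G93A pool was lower than the WT pool by -2.08 log2 units before symptoms, where the probe was not detected in the G93A pool, and higher by 0.83 at onset. Each value sets 1 pool against 1, and the difference between the stages was not tested.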

How the results depend on the processing

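The median difference of the ribosomal protein genes was above 0 at every stage under every alternative run, but not always above that of all genes. Its size depended on scaling and on the WT pool used. In the authors' deposited normalized values the median difference before symptoms was -0.0041 relative to that of all genes. With the 75th-percentile shift, which moved the median of all genes to 0.14, -0.02 and 0.16, it was 0.35 before symptoms and 0.0018 at end stage, or 0.21, 0.14 and -0.16 relative to all genes. With probe identifiers as deposited it was 0.012 at onset and 0.0081 at end stage. That order puts values of other probes under these gene names, so its sign is no check on the members. Against the presymptomatic WT pool it was 0.33 at onset and 0.34 at end stage.

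Past 1.5-fold, the 75th-percentile shift gave 14 higher genes before symptoms and 2 at end stage. The authors' deposited normalized values gave 3 higher before symptoms and 3 at end stage, with 2 lower at onset and 2 at end stage. Noise estimated by regression also gave 2 lower at onset and 2 at end stage.

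Calls by limma with the 75th-percentile shift numbered 3 before symptoms, 1 at onset, 2 at end stage and 3 between the end-stage and presymptomatic G93A pools, among 393, 666, 1056 and 877 of 12711 probes called. Before symptoms they numbered 3 with regressed noise, 1 without further background correction and 2 with a trended robust prior, among 261, 121 and 95 of all probes, and regressed noise gave 2 between the G93A pools, among 269. Genotype calls were 0 under every alternative, including the fit without stage as a block. Leaving out each stage or WT pool gave no calls either. Such fits have fewer residual degrees of freedom (1 without a WT pool), so this is a weak check. The stage block pairs the G93A and WT pools of each stage, and the labels give nothing for any further pairing.

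Genes with G93A pools wholly above WT pools numbered 5 with the 75th-percentile shift (8.93%, against 14.5% of all genes), 6 in the deposited normalized values (10.7%, against 8.57%) and 4 of 40 with identifiers as deposited (10%, against 8.15%). Genes wholly below numbered 0 with the shift, 1 among probes detected on all arrays and 0 with identifiers as deposited. The cause of these changes was not tested. No named gene's stage-matched difference past 1.5-fold changed sign under the alternatives run for it. However, 37 stage-matched differences of named genes moved by more than the SD of the WT pools with the 75th-percentile shift, and 56 did not. In the deposited normalized values 21 moved and 72 did not. In the deposited intensities without further normalization 20 moved and 73 did not. Fewer moved without further background correction (16), with regressed noise (14) and with an offset of 50 (4). The settings for the overlap counts were added after seeing the data. Low signal limits Rpl5, Rps19, Rplp2, Rpl31 and Rps24, which lie near the background.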
